A study of Rattus norvegicus with 6 samples.

Results

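The genes described here are 10 activity-induced immediate early genes, Fos, Fosb, Junb, Egr1, Egr3, Arc, Npas4, Nr4a1, Ier2 and Dusp1, taken by name from the 33455 genes of the deposited count table. All 10 names occurred once in the table, and 9 passed the low-count filter and were tested. RNA came from the lesion core of the spinal cord of wild type rats (Rattus norvegicus) with a contusion at the T9 segment. The 2 groups were Gel+US (n = 3) and Piezo Gel+US (n = 3), whose libraries are called Gel1 to Gel3 and Piezo1 to Piezo3 after their replicate numbers. Both carried the injury and an implanted material, and both received ultrasound at 100 Hz and 1.0 W/cm2 for 10 min a day over 4 weeks, so the groups differ in whether the gel was piezoelectric, that is, able to turn mechanical strain into electrical charge. Each library was made from a tissue piece of about 5 mm3. Age, sex, the composition of either gel, and the interval between the last ultrasound session and tissue collection are not given in the sources used here, nor is it said whether a library pools several animals. The comparison addresses which transcripts differed between the 2 gels in injured tissue given ultrasound. No group lacked ultrasound, so an effect of the gel material and an effect of its response to ultrasound cannot be told apart.

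Immediate early genes are transcribed within minutes of a stimulus, without new protein synthesis, and their mRNAs are short-lived. In neurons, synaptic input and calcium entry activate kinases that phosphorylate the transcription factors CREB and SRF with its ELK partners, which already sit on these promoters. Growth factors, injury and inflammation induce most of the same genes in glia, endothelium, fibroblasts and leukocytes, whereas Npas4 and Arc are largely genes of neurons. The CREB element (CRE), the SRF element (CArG box) and the EGR site are the best known promoter motifs of the family.

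Promoter sequence was available for 7 of the 10 genes from RefSeq (rat build GRCr8), and 4 are shown as 2 contrasting pairs: Junb and Ier2, among the closer pairs in pattern across libraries, and Nr4a1 and Dusp1, the most distant pair. Each is the 250 bases upstream of the gene's annotated start, 5′ to 3′ on the coding strand. Capitals mark every copy of the CRE core TGACG on either strand, including both overlapping cores of a full CRE, TGACGTCA.
Junb, chr19:40080876-40081125, plus strand: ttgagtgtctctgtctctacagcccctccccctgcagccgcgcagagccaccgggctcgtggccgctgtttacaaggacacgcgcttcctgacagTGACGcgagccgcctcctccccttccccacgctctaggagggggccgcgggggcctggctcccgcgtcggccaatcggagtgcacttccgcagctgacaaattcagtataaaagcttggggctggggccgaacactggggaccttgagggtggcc
Ier2, chr19:40399123-40399372, plus strand: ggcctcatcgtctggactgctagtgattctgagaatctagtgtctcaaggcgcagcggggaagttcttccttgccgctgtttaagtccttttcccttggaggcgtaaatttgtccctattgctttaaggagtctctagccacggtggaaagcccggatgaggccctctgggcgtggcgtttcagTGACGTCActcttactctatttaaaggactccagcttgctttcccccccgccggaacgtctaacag
Nr4a1, chr7:134259888-134260137, plus strand: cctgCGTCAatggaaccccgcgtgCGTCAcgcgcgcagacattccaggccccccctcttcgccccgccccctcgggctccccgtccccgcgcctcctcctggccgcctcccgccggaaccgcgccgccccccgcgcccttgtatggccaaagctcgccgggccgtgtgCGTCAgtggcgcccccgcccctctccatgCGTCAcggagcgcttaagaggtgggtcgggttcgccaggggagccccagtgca
Dusp1, chr10:17184603-17184852, plus strand: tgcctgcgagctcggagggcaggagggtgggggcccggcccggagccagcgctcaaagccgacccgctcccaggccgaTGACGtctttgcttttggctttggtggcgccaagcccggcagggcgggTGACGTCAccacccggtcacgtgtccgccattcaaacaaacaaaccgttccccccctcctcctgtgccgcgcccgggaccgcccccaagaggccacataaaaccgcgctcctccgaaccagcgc

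Nr4a1 held 4 CRE cores in this window, a number that 0.186% of 27457 rat promoters of the same length reach. Dusp1 held 3, of which 2 form a full CRE at -124 to -117 from the start. Ier2 held 2, which form a full CRE at -66 to -59, and Junb held 1. A full CRE occurred in 2 of the 7 windows and in 1.7% of all promoters, and at least 1 core in 5 of the 7 and in 19% of all promoters. Egr1, whose sequence is not shown, held 2 cores and 2 CArG boxes, and a CArG box occurred in 1.5% of all promoters. Nr4a1 also held the EGR site GCGGGGGCG, on either strand, found in 2.49% of all promoters. Among 33 other immediate early genes, 12.1% held a full CRE, 48.5% at least 1 core and 0% 4 cores. A CArG box occurred in 9.09% of those genes and the EGR site in 15.2%. None of these motifs was found in the windows of Fosb and Npas4, and Fos, Egr3 and Arc had no entry. These matches describe letters in 250 bases and not binding.

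The 6 libraries held 17212653 to 21436820 counts. By the edgeR quasi-likelihood test, adjusted by the Benjamini-Hochberg method over all genes, 0 of 17066 genes passed at an adjusted p below 0.05 (smallest adjusted p = 0.994), 359 were at an unadjusted p below 0.05, and DESeq2 also called 0, with 652 at that level. Markers of neurons, astrocytes and oligodendrocytes were detected in every library, although Gfap was not analysed here. The makeup of the pieces varied within groups: summed over 16 neuron markers the level was 3405 to 19900 CPM (counts divided by the scaled library size, on a common scale) in Gel+US against 2547 to 10310 in Piezo Gel+US, and over 12 fibroblast markers 956 to 8388 and 1573 to 6593 CPM. Summed over 10 Schwann cell markers it was 4981 to 7863 CPM in Gel+US against 7871 to 72700 in Piezo Gel+US, the top value being replicate 2. No marker of these lists that was in the table was at 0 in any library. In bulk tissue a smaller number of cells of a type and less RNA per cell cannot be told apart.

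Levels between genes were compared as CPM per kb of the gene model length in the deposited table, over all 6 libraries. Dusp1 stood highest at 55.5 ± 29.7 CPM per kb (SD, n = 6), followed by Junb at 33.6 ± 18.0, Nr4a1 at 27.8 ± 21.4, Ier2 at 25.2 ± 10.7, Egr1 at 16.2 ± 9.96 and Fos at 15.9 ± 8.84. Arc at 2.21 ± 0.441, Fosb at 1.5 ± 1.19 and Egr3 at 1.30 ± 0.757 formed a lower tier, and Npas4 was lowest at 0.148 ± 0.0909. The order was separated beyond the spread of the libraries at only 2 places. The lowest Fos value, 7.93 CPM per kb, lay above the highest Arc value, 2.73, and the lowest Egr3 value, 0.561, lay above the highest Npas4 value, 0.316. All other neighbours in the order overlapped. The upper tier held genes that many cell types can induce, and both largely neuronal genes, Arc and Npas4, lay below it together with Fosb and Egr3.

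**Figure D1:**
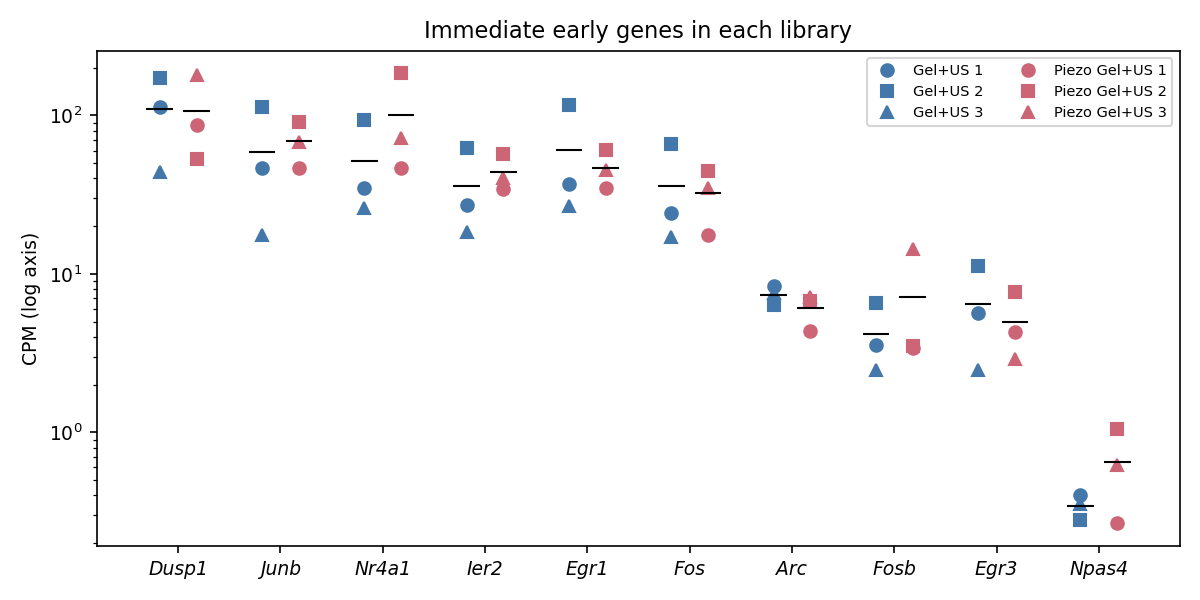
CPM of each gene on a log axis, with genes ordered by mean CPM per kb; each point is 1 library, coloured by group and shaped by replicate number, and each bar is the mean of 3 libraries. The 2 groups overlap for all 10 genes, and Gel2 and Gel3 span most of the range of Fos, Egr1, Junb and Ier2.

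Fos and its relatives of the AP-1 complex gave no difference between groups beyond the spread of the libraries. Fos (99575709 to 99579136, plus strand, positions as deposited, on an unnamed build) pairs with a Jun protein to bind AP-1 sites. It measured 24.2, 66.4 and 17.04 CPM in Gel1 to Gel3 and 17.7, 44.3 and 35.0 CPM in Piezo1 to Piezo3. Gel2 was the highest library and Gel3 the lowest, so the Gel+US values enclosed those of Piezo Gel+US. The log2 fold change was -0.15 (95% interval -1.51 to 1.21), and it was 0.64 without Gel2 and 0.12 without Piezo1.

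Fosb (171311080 to 171318457, plus strand) encodes a Fos relative whose stable splice form accumulates with repeated stimulation in neurons. It measured 3.56, 6.5 and 2.46 CPM in Gel1 to Gel3 and 3.42, 3.52 and 14.4 CPM in Piezo1 to Piezo3. A single library, Piezo3, stood above the rest, and the others overlapped. Its log2 fold change was 0.77 (95% interval -0.86 to 2.40) and turned to -0.26 without that library.

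Junb (15311823 to 15313722, plus strand) encodes the Jun family partner that is itself rapidly induced. It measured 46.8, 112 and 17.5 CPM in Gel1 to Gel3 and 46.8, 90.9 and 68.1 CPM in Piezo1 to Piezo3. As for Fos, Gel2 was highest and Gel3 lowest. The log2 fold change of 0.22 (95% interval -1.28 to 1.72) was -0.23 without Gel3, -0.045 without Piezo2 and 1.08 without Gel2.

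Egr1 and Egr3, zinc finger transcription factors of the early growth response family, had estimates below 0 with wide intervals. Egr1 (9495054 to 9499032, minus strand) measured 37.1, 116.5 and 26.6 CPM in Gel1 to Gel3 and 35.0, 60.0 and 45.3 CPM in Piezo1 to Piezo3. The Piezo Gel+US values lay within the span of the Gel+US values. Its log2 fold change was -0.36 (95% interval -1.69 to 0.97) and 0.54 without Gel2. Egr3 (54265407 to 54270890, minus strand), which acts downstream of neuronal activity and in muscle spindle sensory innervation, measured 5.66, 11.2 and 2.46 CPM in Gel1 to Gel3 and 4.27, 7.70 and 2.90 CPM in Piezo1 to Piezo3. Replicate 2 was the highest library of each group and replicate 3 the lowest. The log2 fold change was -0.38 (95% interval -1.84 to 1.09) and 0.28 without Gel2.

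Nr4a1 had the largest estimate of the 9 genes tested, and its size depended on single libraries, above all Piezo2 and Gel2. The gene (261816890 to 261837125, minus strand) encodes an orphan nuclear receptor, also called Nur77, induced by activity in neurons and by stimulation in macrophages, T cells and endothelium. It measured 34.6, 93.4 and 25.9 CPM in Gel1 to Gel3 and 46.6, 184 and 71.7 CPM in Piezo1 to Piezo3. Piezo2 was highest, yet Gel2 exceeded both other Piezo Gel+US libraries, so the groups overlapped. The log2 fold change was 0.98 (95% interval -0.60 to 2.55, edgeR adjusted p = 0.994), and it was 0.20 without Piezo2, 1.72 without Gel2, 0.63 without Gel3 and 0.76 to 1.29 without any 1 of the others. That same Piezo Gel+US library held the summed Schwann cell marker level of 72700 CPM, and the part of these cells in the Nr4a1 value was not tested. The labels do not state that equal replicate numbers mark pairs. Within such assumed pairs Nr4a1 was higher in Piezo Gel+US in 3 of 3, by 0.43, 0.98 and 1.46 on the log2 scale. The share of all genes with the same sign in 3 of 3 was not computed. With the replicate number as a block the log2 fold change of Nr4a1 was 0.96 (95% interval 0.39 to 1.53), with an edgeR unadjusted p of 0.00646 and an adjusted p of 0.855, so it did not pass. In that fit 986 of 17066 genes were at an unadjusted p below 0.05.

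Ier2 (15629547 to 15631128, plus strand, on the same sequence as Junb) encodes a small nuclear protein of the immediate early response. It measured 27.1, 62.1 and 18.4 CPM in Gel1 to Gel3 and 34.1, 56.8 and 40.2 CPM in Piezo1 to Piezo3. The Piezo Gel+US libraries again fell inside the span of Gel+US. Its log2 fold change was 0.29 (95% interval -0.82 to 1.39), with -0.045 without Gel3, 0.042 without Piezo2 and 0.93 without Gel2. Dusp1 (4946337 to 4949155, plus strand) encodes a phosphatase that switches off MAP kinases and is induced by stress and glucocorticoids. It measured 112, 171 and 44.2 CPM in Gel1 to Gel3 and 86.5, 53.3 and 179 CPM in Piezo1 to Piezo3. High libraries occurred in both groups, and Piezo2, where Nr4a1 was highest, ranked next to last for Dusp1. The log2 fold change of Dusp1 was -0.039 (95% interval -1.46 to 1.38), and it was 0.44, 0.078 and 0.28 without Gel2, Piezo1 and Piezo2.

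Arc and Npas4, the most neuron-restricted of the 10, were also indistinguishable between groups at this depth and sample number. Arc (247413850 to 247417327, minus strand, on the same sequence as Nr4a1) encodes a synaptic protein whose mRNA travels to dendrites. It measured 8.32, 6.33 and 7.52 CPM in Gel1 to Gel3 and 4.38, 6.74 and 7.14 CPM in Piezo1 to Piezo3. Arc was the steadiest of the 10, with a 1.90-fold span from lowest to highest library against 3.37- to 7.12-fold for the others. Its log2 fold change was -0.28 (95% interval -0.96 to 0.40) and stayed below 0 with any 1 library left out (-0.41 to -0.11). Npas4 (2671849 to 2677511, plus strand, on the same sequence as Fosb) encodes a transcription factor induced by calcium entry in neurons. It had 8, 5 and 7 counts in Gel1 to Gel3 and 5, 21 and 12 counts in Piezo1 to Piezo3. The 95% Poisson intervals, which cover counting error only, were 1.62 to 11.7 for 5 counts and 13.0 to 32.1 for 21. Only Piezo2 lay clear of the 2 lowest libraries by counting error, and that library had the lowest summed neuron marker level, 2547 CPM. Npas4 fell below the count filter, and without the filter its log2 fold change was 0.91 (unadjusted p = 0.233 by the edgeR quasi-likelihood test over all genes).

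**Figure D2:**
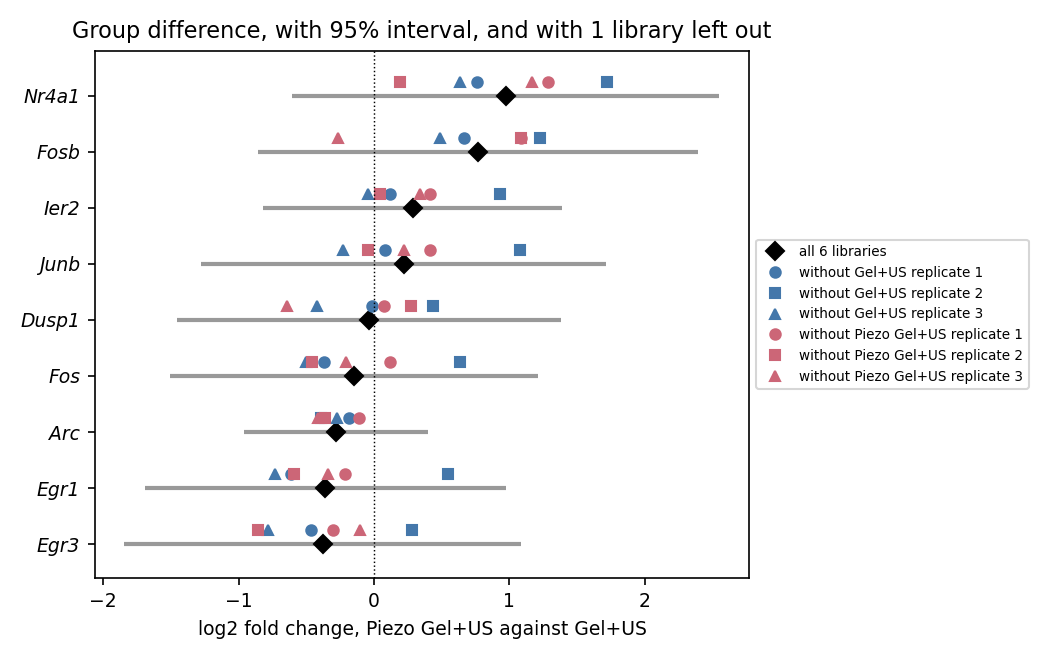
Log2 fold change of Piezo Gel+US against Gel+US for the 9 genes tested: diamonds are the fit on 6 libraries with its 95% interval as a bar, and the smaller points are fits without the library named. Every bar crosses 0, from Egr3 at -0.38 to Nr4a1 at 0.98, and the points for Fos, Fosb, Junb, Egr1, Egr3, Ier2 and Dusp1 lie on both sides of 0.

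In all, 0 of the 9 genes tested passed at an adjusted p below 0.05 (background 0% of 17066 genes), 0 were at an unadjusted p below 0.05 (background 2.1%), and 0 had groups that did not overlap (background 6.81%). The estimates were above 0 for 4 genes and below 0 for 5, with a median of -0.039 against -0.021 over all genes tested. That median was 0.64 without Gel2 and -0.28 without Gel3, against 0.010 and -0.013 over all genes in the same fits. Without Gel2, Nr4a1 and Ier2 were at unadjusted p of 0.0302 and 0.0217 in edgeR, and neither passed after adjustment. In that fit 775 of 17389 genes were at an unadjusted p below 0.05, against 359 of 17066 with all 6 libraries. The members' intervals with all 6 libraries are wide: for the narrowest, Arc, the lower bound was a log2 difference of -0.96, so changes of that size in Arc cannot be told from no change with these libraries.

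The spread lay between libraries more than between groups. The standard deviation of log2 CPM over the 6 libraries had a median of 0.82 for the 9 genes and 0.38 for all genes tested (0.94 at the 90th percentile). All 9 had a mean log2 CPM of at least 2. Among the 13146 genes at that level the median was 0.31 and the 90th percentile 0.77. Of the 10 genes, 8 were lowest in Gel3, and the other 2, Arc and Npas4, were lowest in Piezo1. Gel2 held the highest value of 5 genes, Fos, Egr1, Egr3, Junb and Ier2. Piezo2 was highest for Nr4a1 and Npas4, Piezo3 for Fosb and Dusp1, and Gel1 for Arc. Averaged over the 9 genes, the deviation from the mean of the 6 libraries was -0.19, 0.81 and -0.92 (log2 CPM) in Gel1 to Gel3 and -0.36, 0.37 and 0.30 in Piezo1 to Piezo3. The 2 extremes were thus both Gel+US libraries.

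**Figure D3:**
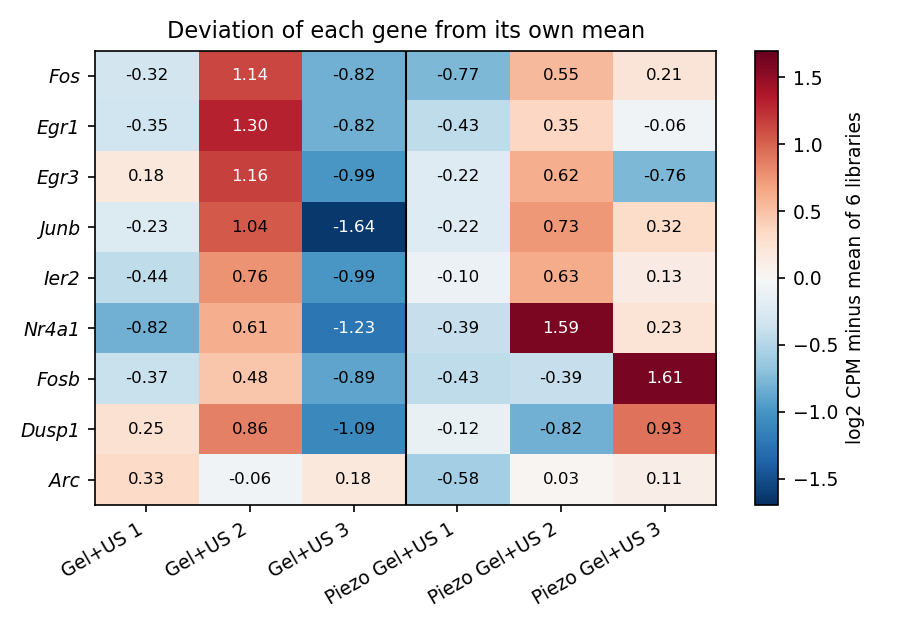
Log2 CPM of the 9 tested genes (rows) in each library (columns) minus the gene's mean over the 6 libraries, with the value in each cell; a line parts the groups. Fos, Egr1, Egr3, Junb and Ier2 are highest in Gel2, Nr4a1 peaks in Piezo2 at 1.59, Fosb in Piezo3 at 1.61, and Arc is nearly flat.

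Likeness between 2 genes was measured as the root-mean-square difference of their centred log2 CPM over the 6 libraries, so that 0 means the same pattern. Fos and Egr1 were the closest of the 36 pairs at 0.21, followed by Egr1 and Ier2 at 0.30 and Junb and Ier2 at 0.32. Fosb was nearest to Dusp1, at 0.47, and both were high in Piezo3. Nr4a1 and Dusp1 were the most distant pair at 1.13. Among 11355 other genes, the 10 nearest to the mean pattern of the 9 were Adora2a, an adenosine receptor (0.15), Icam1, a leukocyte adhesion molecule (0.16), Tinagl1 (0.17), Slc8b1, a mitochondrial sodium/calcium exchanger (0.17), Mtmr11 (0.18), Lamb2, a laminin chain (0.18), Ifi35 (0.18), Chrd, the BMP antagonist chordin (0.18), Cebpb, itself an immediate early transcription factor (0.18), and Lpin3 (0.19). The genes nearest to Fos were Tcim, Timp3 and Hes1 (0.12 to 0.15). Those nearest to Egr1 were Eya2, Tsku and Timp3 (0.10 to 0.17), and those nearest to Arc were Tmem178a, Cavin2 and Znf521 (0.094 to 0.12). Dusp1 was nearest to Depp1, Sik1 and Serpinb1 (0.13 to 0.25), of which the kinase Sik1 is an immediate early gene as well. These are descriptions over 6 libraries.

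Markers of some cell types moved with the same libraries. The mean deviation of the 12 fibroblast markers was 1.53 in Gel2 and -1.27 in Gel3, the same 2 extremes as for the immediate early genes. It was 1.14 in Piezo2. The 16 neuron markers stood at -0.65 and 1.01 in Gel2 and Gel3 and at -1.03 in Piezo2, so the immediate early genes were lowest where neuron markers were highest. Of 11 neutrophil markers, 7 were tested, at 1.76 in Gel2 and -3.67 in Gel3, where their summed level was 8.67 CPM against 95.9 to 282 CPM in the other 5 libraries. Lcn2, Ltf and Camp were at 0 in at least 1 library. The T and B cell markers tested stood at 2.11 in Gel2 and -2.515 in Gel3. By contrast, Schwann cell markers were highest in Piezo2 (1.90) and oligodendrocyte markers in Piezo1 (0.47). Astrocyte and microglia markers were lowest in Piezo2 (-1.12 and -0.99). The part of any of these cells in the immediate early gene pattern was not tested.

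**Figure D4:**
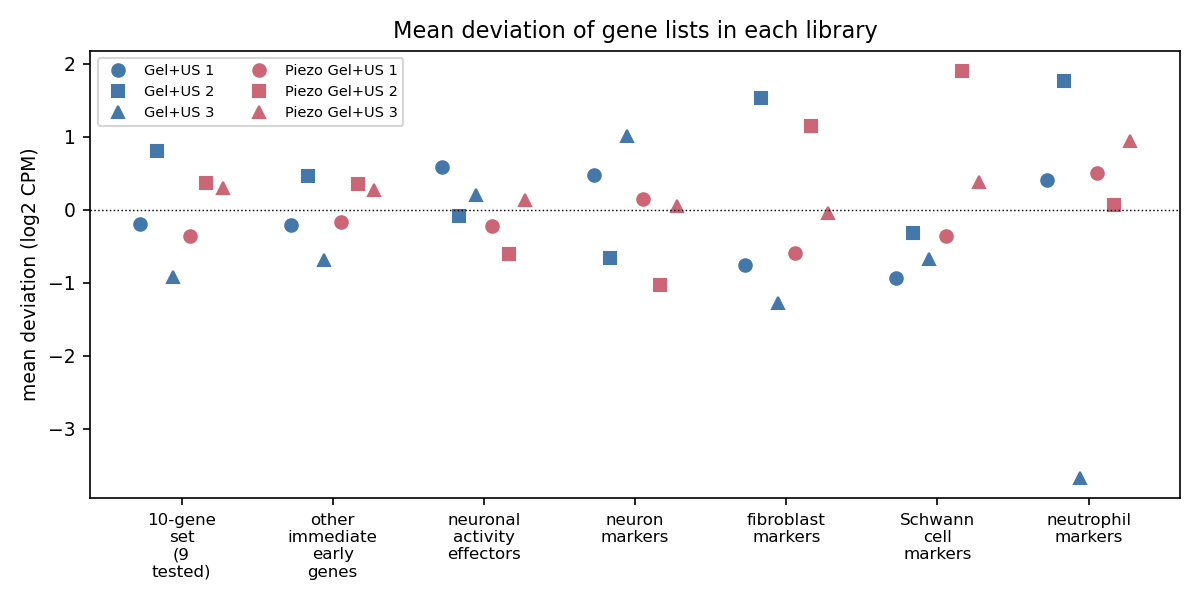
Mean deviation of each gene list from its own 6-library mean (log2 CPM), 1 point per library, coloured by group and shaped by replicate number. The 10-gene set (9 tested) is highest in Gel2 (0.81) and lowest in Gel3 (-0.92), as are the fibroblast and neutrophil markers, while the neuron markers are highest in Gel3.

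Ratios of 2 of the genes within 1 library do not depend on library scaling, and some of them separated the groups where the levels did not. Nr4a1 was 1.43, 1.41 and 1.52 times Fos in CPM in Gel1 to Gel3 and 2.64, 4.16 and 2.05 times Fos in Piezo1 to Piezo3. Relative to Egr1, Nr4a1 was 0.934, 0.801 and 0.974 in Gel+US against 1.33, 3.07 and 1.58 in Piezo Gel+US. Ier2 relative to Egr1 was 0.730, 0.533 and 0.693 in Gel+US against 0.974, 0.947 and 0.887 in Piezo Gel+US. In each of these ratios all 3 Piezo Gel+US libraries exceeded all 3 Gel+US libraries. The same held for Junb relative to Egr1 (0.659 to 1.26 in Gel+US, 1.34 to 1.51 in Piezo Gel+US), for Junb relative to Fos (1.03 to 1.93 and 1.95 to 2.65) and for Ier2 relative to Fos (0.936 to 1.12 and 1.15 to 1.93). With Egr3 as the base it held for Nr4a1 and Junb, while Ier2 relative to Egr3 overlapped (4.78 to 7.51 and 7.39 to 13.9). Some of these gaps were near ties. Junb relative to Fos was 1.93 in Gel1 and 1.95 in Piezo3, and Ier2 relative to Fos reached 1.12 in Gel1 and 1.15 in Piezo3. Nr4a1 relative to Egr3 was 10.6 in Gel3, where Egr3 had 49 counts, and 10.9 in Piezo1. Counting error of the ratios was not assessed. In all, 8 of the 36 ratios had no overlap, and each of the 8 set Nr4a1, Junb or Ier2 over Fos, Egr1 or Egr3. Every ratio was written so that its mean log2 value was higher in Piezo Gel+US, so the direction of a single ratio carries no information. The background, the share of all genes whose ratio to the same gene did not overlap, was 1.25% for Fos, 2.03% for Egr1, 1.79% for Egr3, 3.39% for Nr4a1, 1.46% for Junb and 2.61% for Ier2. It is not a matched background. Genes at large need not share the library pattern common to these genes, which a ratio between 2 of them partly cancels. The 8 ratios also reuse the same genes and are not independent. The ratios were examined after the levels had been seen, and 3 libraries against 3 cannot go below an exact two-sided permutation p of 0.1, and no model was fitted to the ratios. No ratio with Arc, Fosb or Dusp1 separated the groups (backgrounds 8.46%, 1.14% and 0.545%).

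**Figure D5:**
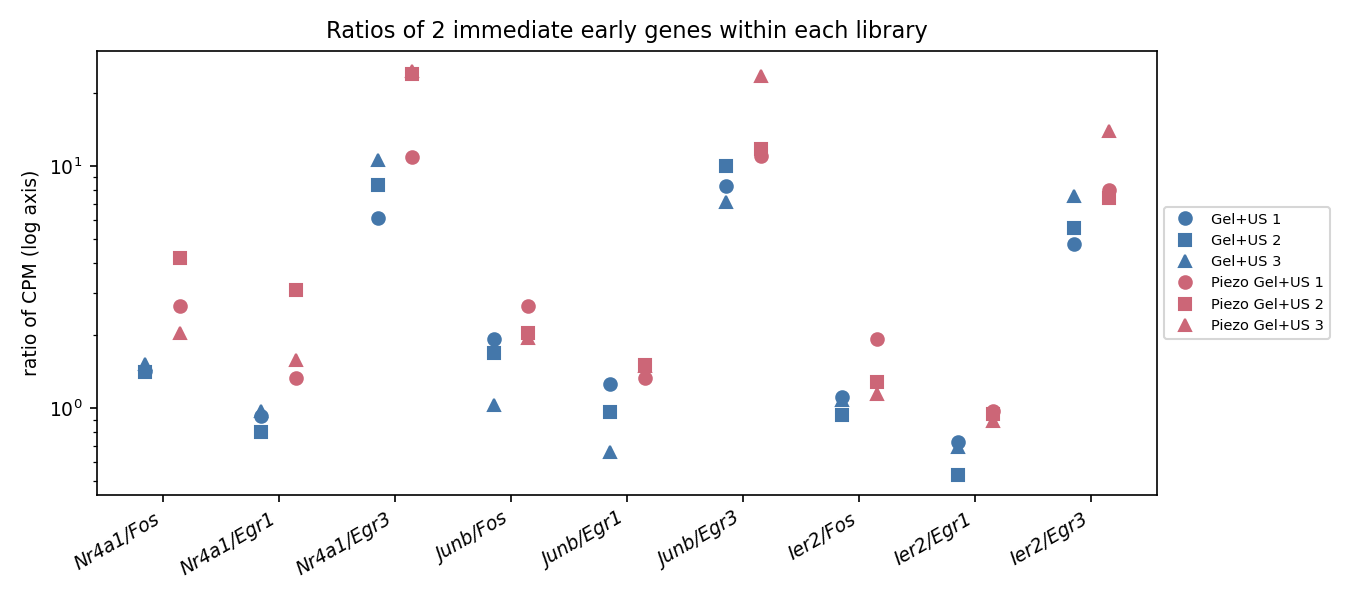
Ratio of the CPM of 2 genes within each library, on a log axis, for Nr4a1, Junb and Ier2 over Fos, Egr1 and Egr3; each point is 1 library, coloured by group and shaped by replicate number. The Piezo Gel+US points lie above all Gel+US points in 8 of the 9 ratios, and the exception is Ier2 over Egr3. The 9 are a selection from the 36 ratios that holds all 8 without overlap.

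Other immediate early genes, a list of 43 transcription factors and regulators, were also not called: 0 of 41 tested passed in either direction, with 31 estimates above 0 and 10 below and a median log2 fold change of 0.24, against -0.021 over all genes. Of the 41, 65.9% were lowest in Gel3 and 34.1% highest in Gel2, where the shares over all genes tested were 26.6% and 19.0%. Piezo2 was highest for 15 of the 41 and Gel2 for 14. Over all 17066 genes tested, Piezo2 was highest for 4983 and Gel2 for 3248. The relatives of the 10 genes did not share 1 direction. Nr4a3, the third receptor of the Nr4a family, measured 5.56, 10.2 and 6.67 CPM in Gel1 to Gel3 and 5.07, 2.36 and 3.73 CPM in Piezo1 to Piezo3. Its groups did not overlap (2.73% of all genes lie lower in this way), with a log2 fold change of -1.01 (95% interval -1.94 to -0.071), opposite in sign to Nr4a1 and to Nr4a2 at 0.74. Egr2, which besides its immediate early role drives myelination in Schwann cells, measured 32.5, 65.0 and 29.1 CPM in Gel+US against 40.4, 239 and 82.7 in Piezo Gel+US. Its highest value was in the library with the most Schwann cell marker RNA, and its log2 fold change of 1.52 (95% interval -0.085 to 3.12) was 0.54 without that library. Gadd45b, a stress and activity gene linked to DNA demethylation, measured 16.1 ± 4.37 CPM in Gel+US against 27.9 ± 8.02 in Piezo Gel+US (n = 3 each) and did not overlap (background 4.08% higher). Mafk, a small partner of AP-1-like factors, measured 23.2 ± 5.91 and 33.3 ± 3.90 CPM and did not overlap either. In the list of 41 tested, 4 genes lay higher and 1 lower without overlap. Gadd45b and Nr4a3 were the 2 genes of the list at an unadjusted p below 0.05 in edgeR, and both had an adjusted p of 0.994. Gadd45b was at 0.52 without Piezo2 against 0.79 with all libraries, and Mafk at 0.34 without Gel3 against 0.53. With the replicate number as a block the interval of Nr4a3 was -2.11 to 0.077 and so included 0.

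Neuronal activity-regulated effectors, the secreted and synaptic products that follow immediate early transcription in neurons, leaned to the other side. Of 27 tested, 0 passed, 7 estimates were above 0 and 20 below, with a median of -0.36. Pcsk1, a prohormone convertase, measured 10.7, 6.998 and 10.4 CPM in Gel1 to Gel3 and 4.64, 1.86 and 4.50 CPM in Piezo1 to Piezo3. Its groups did not overlap (background 2.73% lower). The log2 fold change was -1.35 (95% interval -2.34 to -0.37, edgeR adjusted p = 0.994), -1.57 to -1.04 with 1 library left out. Crh, a stress neuropeptide, had a log2 fold change of -2.70 from low levels of 3.84 ± 4.11 and 0.589 ± 0.664 CPM (n = 3 each), with overlap. Gel1 held 8.57 CPM of Crh against 0.10 to 1.85 CPM elsewhere, and the log2 fold change was -1.33 without Gel1 and -4.16 without Piezo3. The neuropeptide Sst had -0.84 and the vesicle protein Syt4 had -1.11, both with intervals that include 0. With the replicate number as a block they had -0.80 (95% interval -1.24 to -0.35) and -0.89 (-1.71 to -0.061), which exclude 0, and neither passed after adjustment in edgeR. Without Gel1 Sst was at -0.48, and without Gel3 Syt4 was at -0.52. Beside these stand the neuron markers, of which 16 of 16 had estimates below 0 (median -0.58), and the part of neuron content in the effector values was not tested.

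None of the genes in the lists around the family passed the test. Among 17 MAPK feedback regulators 0 passed, with 9 above and 8 below 0 (median 0.015). Those of lowest p were Dusp14, the ETS factor Etv5, Dusp7 and the receptor kinase inhibitor Spry1, with log2 fold changes of 0.74, 0.36, 0.31 and 0.70. Without Piezo2 Dusp14 and Spry1 were at 0.24 and 0.27, Etv5 was at 0.22 without Gel2, and Dusp7 was at 0.16 without Gel3. Among 30 upstream kinases, transcription factors and corepressors 0 passed, with 15 on each side of 0 (median 0.012). Mapk3, which encodes the kinase ERK1, measured 309, 299.7 and 316 CPM in Gel1 to Gel3 and 348, 873 and 367 CPM in Piezo1 to Piezo3. Its groups did not overlap (background 4.08% higher). The log2 fold change of 0.78 (95% interval -0.14 to 1.702) was 0.21 without Piezo2. Rps6ka2, Crtc3 and Ppp3ca had 0.28, 0.78 and -0.44. Rps6ka2 did not overlap either, and in this list 2 genes lay higher and 1 lower without overlap. Crtc3 was at 0.15 without Piezo2, and Ppp3ca at -0.13 without Gel3 and -0.70 without Gel2. Heat shock and cellular stress genes gave 0 of 17 passed, 5 above and 12 below 0 (median -0.12), with Cryab, a small heat shock protein of glia, at 1.26, Gadd45a at 0.39, Chordc1 at -0.52 and Hmox1 at -0.45. Cryab measured 1065 CPM in Piezo2 and 185 to 447 CPM in the other 5 libraries, and its log2 fold change was 0.53 without Piezo2. Gadd45a alone in this list had groups that did not overlap. Chordc1 was at -0.17 without Gel3, and Hmox1 at -0.28 without Piezo2 and -0.74 without Piezo1. Their mean deviation was highest in Gel3 (0.30), the library where the immediate early genes were lowest.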

How the data were processed

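Polyadenylated RNA, extracted with TRIzol, was sequenced as dUTP-stranded libraries, per the labels. The authors deposited raw counts per gene for 6 libraries, with the gene length in bases of each model as other information. Per the submitters' processing notes the tools, listed without roles or settings, were HISAT2 2.0.5, DESeq2 1.20.0, fastp 0.19.7 and, besides these, featureCounts 1.5.0-p3; the build and the use of strand in counting are not given in the sources used here. None of the 10 gene identifiers (0) occurs in the GRCr8 table, while 10 symbols do, so deposited positions and RefSeq positions are kept apart. Nr4a1 and Egr1 lie on the minus strand as deposited and on the plus strand in GRCr8, and Fosb and Npas4 the reverse. The deposited positions should not be read as GRCr8 positions, and the assembly they come from was not checked. Reads that differ from the reference used would be lost, in both groups.

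Columns were matched to samples by library name. Counts were fitted with edgeR 4.0.16 in R 4.3.3 (TMM factors, filterByExpr with minimum count 10 and minimum total 15, robust quasi-likelihood F test, group only), adjusted by the Benjamini-Hochberg method over 17066 genes. CPM use the TMM-scaled library, and log2 CPM a prior count of 2. Positive log2 fold changes are higher in Piezo Gel+US. The labels call the replicates biological. The fit was tested on simulated data with known changes, all larger than the members' estimates, so that check does not bear on changes of their size. Alternatives were DESeq2 1.42.0, limma 3.58.1, other filters and scalings, a replicate block and leaving out each library.

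The groups share replicate numbers in the labels, which give no litter or day. Deviations from group means correlated at 0.253, 0.296 and 0.251 between same-numbered libraries, each above 0.1. The numbers were therefore read as a possible pairing, from the data alone, and entered only as an alternative fit. The differently numbered Gel+US replicate 1 and Piezo Gel+US replicate 3 also reached 0.198, and the other 5 such pairs were below 0. These values do not establish that the samples are paired. Members and lists were chosen with earlier results of these data known. The named genes are all 10 members, up to 4 genes of lowest p per related list with mean log2 CPM of at least 0, and the nearest genes by pattern with mean log2 CPM of at least 2.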

Additional observations from a re-analysis of the deposited data

How the results depend on the processing

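In the 12 alternative settings 0 genes were called, over all genes and among the 9 members, and the members' smallest adjusted p was 0.297 (limma with quality weights, Nr4a1). In the fit with a term (block) for the replicate number, 0 genes passed and 986 were at an unadjusted p below 0.05 in edgeR. The members' median log2 fold change was -0.013 there, and the block changed no call. The quality weights were 7.74, 0.419 and 0.438 for Gel1 to Gel3 and 1.39, 0.21 and 2.41 for Piezo1 to Piezo3. The Gel+US side of that fit thus rested mostly on Gel1. With these weights 2413 genes were at an unadjusted p below 0.05 in limma. The members' median was 0.26, and Fos, Egr1 and Dusp1 changed sign (0.17, 0.13 and 0.26). With 1 library left out, 141 to 775 genes were at that level, and the log2 fold changes ran from -0.51 to 0.64 for Fos, -0.26 to 1.23 for Fosb, -0.23 to 1.08 for Junb, -0.73 to 0.54 for Egr1, -0.85 to 0.28 for Egr3, -0.045 to 0.93 for Ier2 and -0.64 to 0.44 for Dusp1. The cause was not tested. Arc (-0.41 to -0.11) and Nr4a1 (0.20 to 1.72) kept their sign in these fits, and the members' median ran from -0.28 to 0.64. Scaling by size factors, no count filter, the non-robust fit and DESeq2 changed no member's sign. The number of separated ratios, an analysis added after seeing the data, was 9 with a prior count and 8 to 14 with 1 library left out, where fewer libraries make separation easier; leaving out Piezo2 gave 13 and leaving out Gel2 gave 14. Depth limits Npas4, at 5 to 21 counts.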
